A study of Mus musculus with 12 samples.

Results

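Mouse embryonic stem cells (ESCs) in which KLF genes were targeted for 24 h were compared with the same kind of cells at 0 h, by the number of links that each 10 kb bin of the genome held. The members were all bins in the 0 h list, the 24 h list or both, which came to 54825 bins: 49460 at 0 h, 47307 at 24 h and 41942 at both times. The V6.5 ESCs carried a lentiviral, doxycycline-inducible Cas9 together with guide RNAs, which the labels describe as directed either at KLF4 alone or at KLF2, KLF4 and KLF5 in tandem. Clonal populations were picked, cultures were kept on irradiated feeder cells with 2i, a medium with inhibitors of MEK and GSK3, and both times came from cells with the same construct. The 0 h samples had no induction and are called WT in the titles. The 24 h samples had doxycycline for 24 h, and their titles carry both TKO and KLF4 KO, so the labels leave the targeted genes unclear. The 2 lists are tied by name to 4 of the 12 samples of the study, 2 replicates per time. The titles of these samples name ChIP-seq of the histone mark H3K27ac, described below. Which libraries gave the links, and with how many replicates, is not stated in the sources used here. There is 1 list per time, so no replicate error and no p-value can be given.

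KLF2, KLF4 and KLF5 are zinc-finger transcription factors that bind GC-rich promoters and enhancers and help to hold mouse ESCs in the naive state, where they can stand in for one another. Enhancers act on promoters that can lie far away on the same chromosome, and the chromatin of active enhancers and promoters carries acetylation of histone H3 at lysine 27 (H3K27ac). HiChIP joins DNA ends that lie close together in the nucleus and enriches for the joined fragments that carry a chosen mark, so that a bin's number of H3K27ac links describes how many other places it contacts.

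The lists give each bin a whole number of 1 or more, read here as its number of links. They also give a last value, read as an H3K27ac signal at the bin, which is present for some bins and missing for others. The lists themselves name neither quantity. Adjacent bins often carried the same last value: the bins around Klf2 all had 8.86 at 0 h and 6.98 at 24 h. A value can therefore stand for several adjacent bins and is not always a bin's own. Links join 2 bins, so that a complete set of links within chromosomes adds an even number to each chromosome, and the sums were even on 20 of 20 chromosomes at both times. Gaps of at least 1 Mb without a listed bin cut the genome into 556 stretches at 0 h and 563 at 24 h, and the sum was even in every one of them. Where a stretch held only 2 bins, both held 1 link, in 26 of 26 such stretches at 0 h and 28 of 28 at 24 h. These sums are what pairs of linked bins would give; they do not show what the links were made from. In no stretch did the bins without a value hold more links than those with one, and no stretch was without a valued bin.

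The promoters shown here are of genes named below that have an iPSC KLF4 peak in the bin of their start, and they give the reader the letters just before those starts. Each is the 250 bases before the start, 5′ to 3′ on the gene's strand, from RefSeq (GRCm38.p6), with capitals at matches to the KLF4 core GGGNGTGG on either strand. Sema5a (chr15:32244563-32244812, plus strand) and Chst11 (chr10:82985247-82985496, plus strand) were touched by a KLF4 peak and held 0 matches, while Igsf21 (chr4:140246812-140247061, minus strand) was not touched and held 2. The promoters of Plce1, Pdia5 and Adssl1 also have such a peak in the start bin but are not printed. They were not touched by a peak and held 0 matches each.
Sema5a: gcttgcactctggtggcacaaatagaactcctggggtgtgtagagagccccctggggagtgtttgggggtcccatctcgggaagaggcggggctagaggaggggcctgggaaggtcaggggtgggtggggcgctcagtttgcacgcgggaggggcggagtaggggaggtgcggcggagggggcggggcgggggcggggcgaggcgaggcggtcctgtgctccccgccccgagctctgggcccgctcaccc
Chst11: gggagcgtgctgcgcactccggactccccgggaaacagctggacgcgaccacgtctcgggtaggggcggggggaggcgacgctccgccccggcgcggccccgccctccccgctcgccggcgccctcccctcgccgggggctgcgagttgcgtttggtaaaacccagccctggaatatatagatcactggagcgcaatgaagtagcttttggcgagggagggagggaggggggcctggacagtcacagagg
Igsf21: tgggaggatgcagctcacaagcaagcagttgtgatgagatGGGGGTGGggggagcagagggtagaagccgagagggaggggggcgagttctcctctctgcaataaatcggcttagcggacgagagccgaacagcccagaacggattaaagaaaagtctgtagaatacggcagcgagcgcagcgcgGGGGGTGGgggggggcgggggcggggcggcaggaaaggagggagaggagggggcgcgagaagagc
The start bin of Sema5a held 2 links at 0 h and was not in the 24 h list. That of Chst11 was not in the 0 h list and held 3 at 24 h, and that of Igsf21 was in neither list. A match is a description of the letters: 17.8% of the 21044 promoters of this length in the RefSeq table held one, 31.5% of the 4257 touched by a KLF4 peak and 14.4% of the 16787 others.

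The bins together held 186496 link ends at 0 h and 168512 at 24 h, which is 93248 and 84256 links if each is counted at both of its bins. The 24 h sum was 0.904 times the 0 h sum, or 9.64% lower, and it was lower on 20 of 20 chromosomes, from 0.831 times on chromosome 3 to 0.946 times on chromosome 5. The sources used here do not give the sequencing depth behind the lists, so a loss of links and a smaller library cannot be told apart. Further ratios and fold calls therefore divide the 24 h number by this ratio unless stated otherwise, and "scaled" means after that division. Numbers of links are given as listed. On the scaled numbers a ratio of 1 is the mean of the genome, not an absence of change. Even so, at least 19726 links of 0 h (21.2%) had to be lost and at least 10734 links of 24 h (12.7%) had to be gained to turn one list into the other.

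Most bins held few links at either time. The median was 2 at both times, 33.2% of bins at 0 h and 33.6% at 24 h held 1 link, and the highest number was 44 at 0 h and 38 at 24 h. The number was the same at both times in 30.8% of bins and differed by at most 1 in 75.9%. Before scaling it was lower at 24 h in 23135 bins and higher in 14820. Across the 54825 bins the numbers correlated with a Pearson r of 0.896, over bins that share libraries and neighbours. The 7518 bins found only at 0 h held 9989 link ends and at most 11 each, and the 5365 found only at 24 h held 6736 and at most 9. In the 12672 bins with 10 or more links of both times together, the split between the times varied 0.307 times as much as independent draws would, so counting intervals below are wider than the scatter of single bins.

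Link ends were densest on chromosome 19, with 186 per Mb at 0 h, against 34.7 on X. The pluripotency markers were all linked: Pou5f1 (encoding OCT4) held 35 links at 0 h and 30 at 24 h, Sox2 39 and 23, Nanog 55 and 50, Esrrb 159 and 140, Sall4 31 and 35, and Zfp42 26 and 23. Of 16 fibroblast markers, which the feeder cells could bring, 8 had a bin, with summed links of 113 at 0 h and 84 at 24 h. Col1a2, Twist1, Twist2, Postn, Dcn, Lum, Acta2 and Prrx1 had none, and fibronectin (Fn1) alone held 61 and 46. The part of feeder cells in the numbers was not tested.

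Whether a bin had an H3K27ac value at each time went with its change in links. The 22739 bins valued at both times held 132128 links at 0 h and 119580 at 24 h, a scaled ratio of 1.00, and the scaled ratio ranged from 0.953 to 1.04 over the 20 chromosomes. The 4073 bins valued only at 0 h went from 11436 to 4410 links, a scaled ratio of 0.427, below 1 on 20 of 20 chromosomes (0.308 to 0.552). The 2872 bins valued only at 24 h went from 3734 to 8113, a scaled ratio of 2.40, with a range over chromosomes of 2.03 to 3.06. The 25141 bins valued at neither time went from 39198 to 36409, a scaled ratio of 1.03 (0.902 to 1.12).

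**Figure D1:**
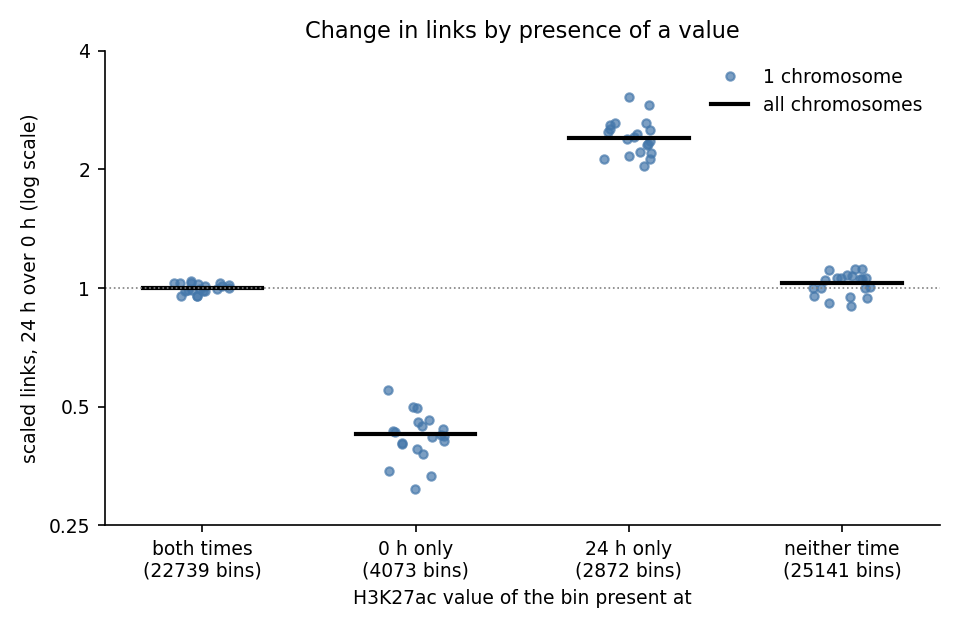
Scaled links at 24 h over 0 h (log axis) by the times at which a bin had an H3K27ac value. Each point is 1 of 20 chromosomes and each bar the sum over all chromosomes: the bins valued only at 0 h lie at 0.427, those valued only at 24 h at 2.40, and the other classes near 1. A bin outside a list has 0 links and no value at that time, which fixes part of the 0.427 and 2.40 in advance.

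Part of that difference was fixed in advance, since a bin outside a list has no value there and counts as 0 links. Of the 4073 bins valued only at 0 h, 2309 were not in the 24 h list. Of the 2872 valued only at 24 h, 1378 were not in the 0 h list, so their value at that time is unknown rather than absent. Among bins listed at both times, the 1764 valued only at 0 h went from 7497 to 4410 links, a scaled ratio of 0.651, and the 1494 valued only at 24 h from 3734 to 5929, a scaled ratio of 1.76. The direction was therefore the same in bins that never left the lists. The ratio also depended on how many links a bin had at first. With 1 link at 0 h the bins valued only at 0 h had a scaled ratio of 0.175, with 3 to 4 links 0.436, and with 10 to 19 links 0.562. In these 3 classes 86.4%, 35.8% and 3.33% of the bins were not in the 24 h list. Whether links were kept only at bins with the mark is not stated in the sources used here, so a change in contacts and a change in the mark cannot be told apart in these numbers.

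Among the bins valued at both times, links followed the size of the value's change as well. These bins were put in 10 groups of equal size by the log2 ratio of their values, set against the median ratio of -0.23. In the group with the largest falls in value (ratios at or below -0.43) links went from 14560 to 10326, a scaled ratio of 0.785. In the group with the largest rises (0.43 and above) they went from 9521 to 10706, a scaled ratio of 1.24. The scaled ratio rose at each step between, and the correlation across the 22739 bins was 0.344, over bins that can share a value with their neighbours. Bins with an iPSC KLF4 peak made up 56.7% of the first group and 16.6% of the last.

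**Figure D2:**
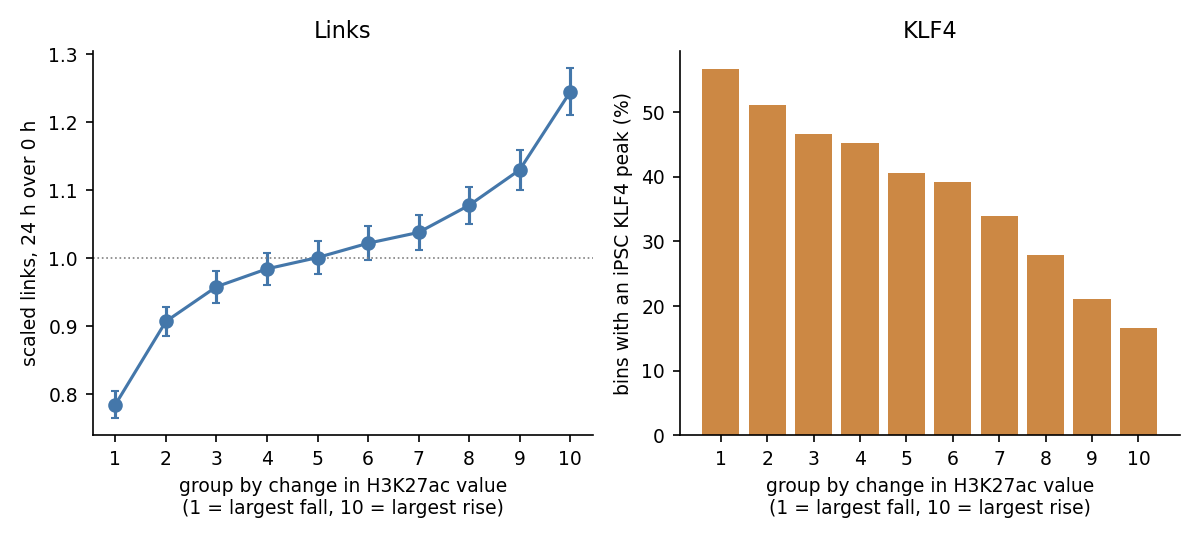
Scaled links at 24 h over 0 h (left, with 95% exact binomial intervals for counting error) and share of bins with an iPSC KLF4 peak in percent (right), in 10 groups by the change in H3K27ac value. Links rise from 0.785 to 1.24 while the KLF4 share falls from 56.7% to 16.6%.

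KLF4 peaks came from induced pluripotent stem cells (iPSCs), somatic cells returned to a pluripotent state, and a bin was counted as bound there when a peak's centre lay in it. Bins with a peak had a scaled ratio of 0.933 and those without 1.04. The bound bins were below the others on 20 of 20 chromosomes, at 0.877 to 0.980 against 0.943 to 1.10. Bound bins have more links to begin with, so they were set beside others of like total. With 5 to 9 links of both times together the scaled ratio was 0.905 in 3069 bound and 1.05 in 9716 other bins, and with 20 to 39 links it was 0.962 in 1480 bound and 1.03 in 1193 other bins. Even among the most linked bins, of 40 or more together, it was 0.970 in 147 bound and 1.07 in 28 other bins. In bins valued at both times the ratios were 0.956 with and 1.04 without a peak, and in bins valued only at 0 h 0.341 and 0.466.

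The change by starting number had opposite directions when bins were classed by one time or by the other. Classed by the 0 h number, the scaled ratio was 0.986 in bins of 1 link, 0.979 at 2, 0.970 at 3 to 4, 0.962 at 5 to 9, 0.934 at 10 to 19 and 0.937 at 20 or more. Classed by the 24 h number it was 1.00 at 1, 1.03 at 2, 1.07 at 3 to 4, 1.07 at 5 to 9, 1.06 at 10 to 19 and 1.05 at 20 or more. Classes cut on one of a pair of noisy lists fall back toward the mean in the other, and the classes by both times together show less of a gradient. There the ratio was 1.02 at 2 links, 1.01 at 5 to 9 and at 10 to 19, 0.992 at 20 to 39 and 0.986 at 40 or more, with 0.824 at 1 link, where a bin can be in 1 list only.

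**Figure D3:**
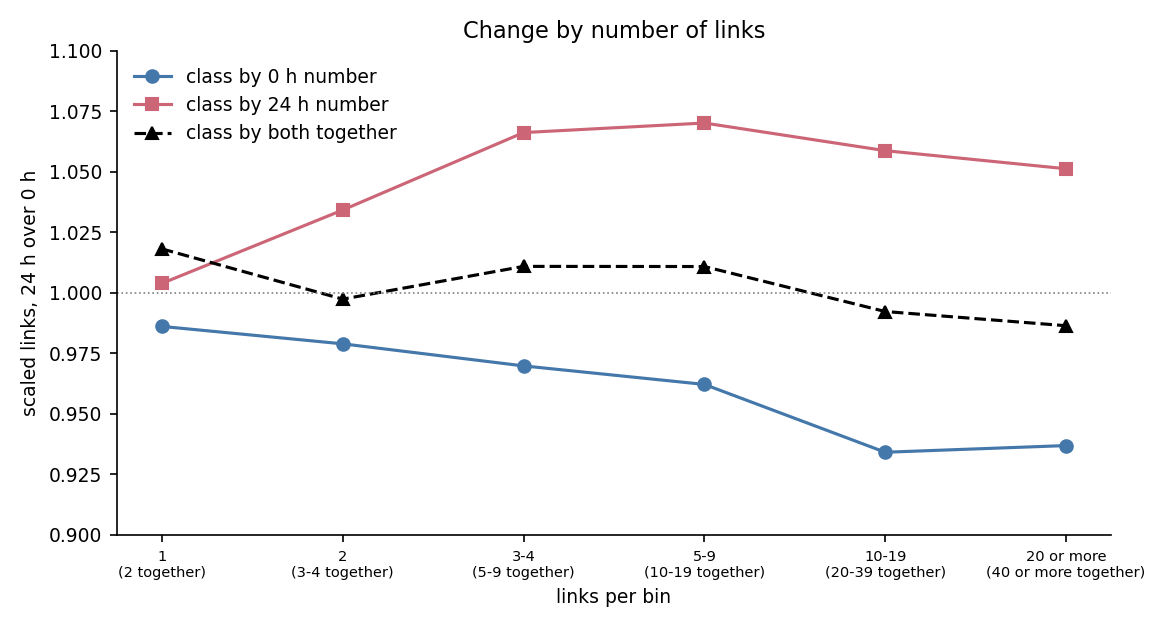
Scaled links at 24 h over 0 h in classes of links per bin, by the 0 h number (circles), the 24 h number (squares) and both together (triangles, classes in brackets). The circles lie between 0.934 and 0.986, the squares at or above 1.00, and the triangles between 0.986 and 1.02; bins with 1 link together, at 0.824, are not drawn.

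Bins with few links at 0 h often left the list. Of bins with 1 link 35.9% were not listed at 24 h, of those with 2 links 13.3%, of those with 3 to 4 links 4.18% and of those with 5 to 9 links 0.694%. The most linked bins all stayed: 250 bins held 20 or more at 0 h, and their lowest number at 24 h was 6. Before scaling 125 of them (50.0%) still held 20 or more, which is 90.6% of the 138 such bins at 24 h. Of these 250 bins, 82.0% held an iPSC KLF4 peak and 68 lay on chromosome 19. The bin with the most links, at Hes1 (chr16:30060001-30070000), a repressor that acts under Notch signalling, held 44 at 0 h and 35 at 24 h. A bin near Eif2b5 held 39 and 29, one at Hnrnpul2, Bscl2 and Gng3 38 and 35, one near Ak3 37 and 26, and one near Tcf7l2 37 and 22. The bins near Rab12 and at Rcor2 both held 36 and 33, and that at Snx15 35 and 31. All 8 held fewer links at 24 h before scaling, and 3 of them, at Hnrnpul2, Rab12 and Rcor2, were level with or above 0 h after it.

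A change of 2-fold or more in the scaled number was asked of the 12672 bins with 10 or more links of both times together. It was met by 310 lower bins (2.45% of those tested) and 152 higher bins (1.2%). Without scaling the counts were 512 and 142, which moves the lower share of all changed bins from 67.1% to 78.3%. Of the 370 tested bins valued only at 0 h, 26.5% were lower and 0 were higher. Of the 278 valued only at 24 h, 27.7% were higher and 0 were lower. Bins with an iPSC KLF4 peak were lower in 3.04% and higher in 0.523%, and bins without one in 2.04% and 1.67%. Neighbouring bins changed together: the scaled difference correlated with a Pearson r of 0.332 between adjacent bins, 0.190 at 50 kb, 0.115 at 100 kb and 0.0237 at 500 kb, so nearby bins are not independent.

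Among the 8 largest falls in scaled number, the bin chr19:6670001-6680000, with no gene end within 100 kb, held 33 links at 0 h and 14 at 24 h. The bin chr16:9350001-9360000 held 16 and 1, while its H3K27ac value, shared with the bin before it, went from 11.5 to 3.37. A bin near Scd1, a fatty acid desaturase gene, held 17 and 3, one near Btrc 19 and 5, and one at Sfxn3 and Pdzd7 20 and 6. All 3 had a value at 0 h and none at 24 h. The bin near Tcf7l2 (chr19:55710001-55720000) held 37 and 22, that at Gstp2, a glutathione transferase gene, 32 and 18, and that near Tifab 22 and 9. Of these 8 bins, 6 lay on chromosome 19 and 7 held a KLF4 peak. Among all bins with 20 or more links at 0 h, 82.0% held a KLF4 peak and 27.2% lay on chromosome 19. Among those with 10 or more, the shares were 57.3% and 11.1%. Chromosome 19 was therefore more frequent among these 8 bins than among well-linked bins, over few bins, and the reason was not tested.

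Among the largest rises, a bin in Pibf1 (chr14:99200001-99210000) went from 3 to 16 links and one in Pcx, the pyruvate carboxylase gene, from 1 to 13. A bin near Klf5 (chr14:99330001-99340000) went from 18 to 28, although its value, shared with the bin before it, was 10.8 at 0 h and 9.72 at 24 h. The bin at Ms4a10 and Ms4a15 went from 5 to 15, chr16:30730001-30740000 from 14 to 23, one in Spire1 from 2 to 12, one in Rbm20 from 10 to 19 and one in Sf3b2 from 3 to 12. The bins in Pibf1, Pcx, Spire1 and Sf3b2 had no value at 0 h and had one at 24 h. Of the 8, 4 lay on chromosome 19 and 1 held a KLF4 peak. Over all 54825 bins, 2314 lay on chromosome 19 and 22.4% held a KLF4 peak, as did 17.8% of the 152 bins that were 2-fold higher. Over so few bins, 1 of 8 is not set apart from those KLF4 shares.

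Links were summed for each gene over the bins that it and 10 kb on each side touch. A gene's bins are counted as lower or higher after scaling, so a bin with the same number at both times counts as higher. Of 21627 protein-coding genes, 14024 had a bin and 7469 had 20 or more links of both times together. Genes that touch the same bins were merged, which left 7329 units. The scaled log2 ratio, taken after adding 1 to each sum, had a median of 0.04 and a standard deviation of 0.39 over units. A scaled change of 1.5-fold was met by 451 lower units (6.15%) and 522 higher units (7.12%). Without scaling these were 767 and 344, so the lower share of changed units goes from 46.4% to 69.0%. The spread depended on the number of links: the standard deviation was 0.51 in units of 20 to 29 links and 0.23 in those of 100 or more. Of the units with 100 or more links, 8 were lower and 9 higher. Large ratios therefore come mainly from genes with few links.

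The genes with the lowest ratios were lower over most of their bins. Gpat4 (chr8:23171265-23208453), which makes the first intermediate of glycerolipid synthesis, held 30 links at 0 h and 6 at 24 h, a log2 ratio of -2.02, and 6 of its 6 bins were lower. Eva1c held 44 and 10, with 10 of 10 bins lower, and the nuclear receptor corepressor gene Lcor 21 and 4, with 8 of 8 lower. Kctd16, an auxiliary subunit of GABA-B receptors, held 22 and 4, and Plce1, a phospholipase C, 35 and 9, or 12 and 8 over bins listed at both times, which is not past the fold. All bins of these genes with a value at 1 time only had it at 0 h, apart from 1 bin of Plce1. Some of these bins were not in the 24 h list, so their value there is unknown. Sema5a, a semaphorin whose promoter is printed above, held 18 and 4 over 10 bins, of which 8 were lower. Prxl2a held 23 and 6, Emp2 29 and 8, and the disulfide isomerase gene Pdia5 and the TFIID subunit gene Taf11 each 16 and 4. The ankyrin gene Ank1 also held 16 and 4, but it shares a flanking bin with Gpat4 (chr8:23160001-23170000, 12 and 2 links), and with no flank it held 4 and 2.

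The last of these 12 genes, Tcf7l2 (chr19:55741797-55933659), encodes a DNA-binding factor of Wnt signalling. It held 35 links at 0 h and 10 at 24 h, a log2 ratio of -1.58, and 17 of its 19 bins were lower. The fall was spread thinly, since its 2 most linked bins went from 6 to 2 each and most others from 1 to 0. The bin upstream of its start with 37 and 22 links, described above, is not part of this sum.

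The genes with the highest ratios started from few links. Pum2 (chr12:8674092-8752583), an RNA-binding repressor of translation, held 4 links at 0 h and 28 at 24 h, a log2 ratio of 2.68, with 8 of 9 bins higher. It had 4 bins valued only at 24 h, most of them not in the 0 h list. Chst11, a chondroitin sulfotransferase gene, held 14 and 50. After scaling all 15 of its bins were higher, among them a bin with 3 links at both times. Of the 15 bins, 6 were valued only at 24 h, most of them not in the 0 h list. Pcx held 16 and 55, with 13 of 13 bins higher. Its most linked bin, chr19:4620001-4630000, went from 12 to 15, and the other 12 bins held 0 or 1 link at 0 h. Gadd45g (chr13:51846675-51848475), a growth arrest gene that responds to stress and cytokines, held 5 and 19 over 3 bins. Ttll1, a tubulin-modifying enzyme gene, and Adssl1, of purine synthesis, each held 5 and 24. Igsf21 held 3 and 17, or 2 and 2 over bins listed at both times. The Polycomb subunit gene Phc2 held 4 and 17, Pde6d 6 and 22, the fatty acid ligase gene Acsl5 6 and 21, and the predicted genes Gm30990 3 and 20 and Gm536 4 and 16.

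**Figure D4:**
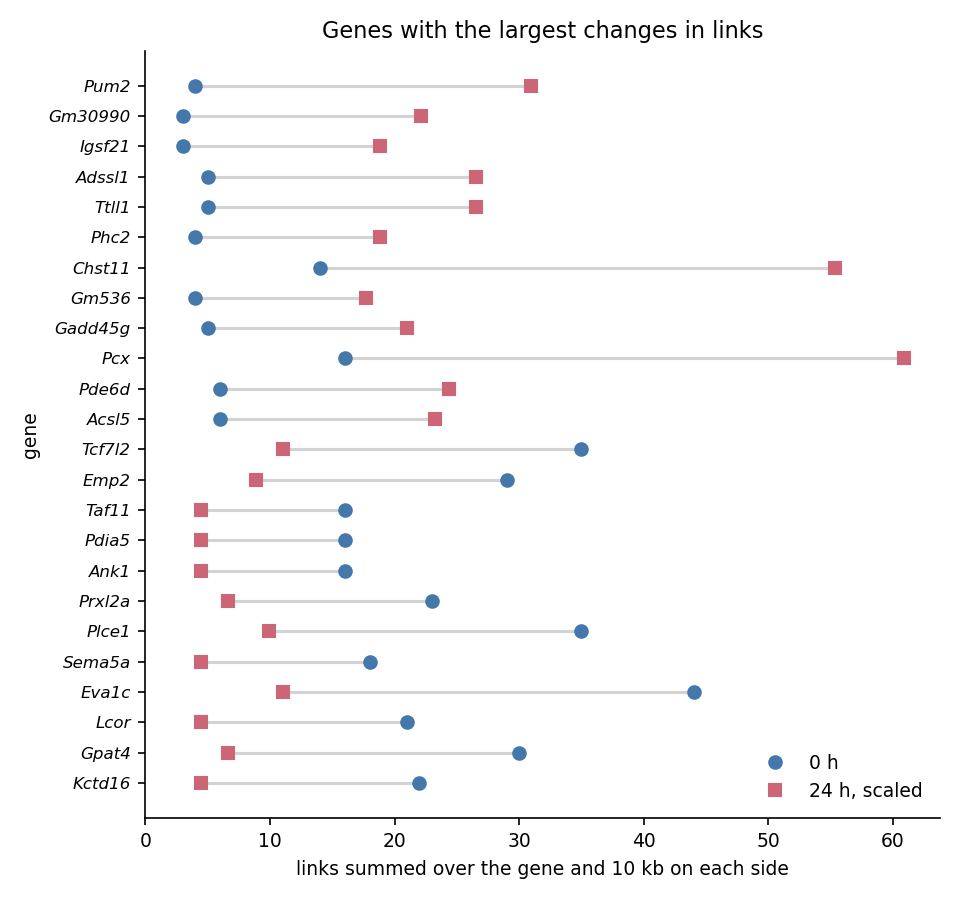
Links summed over the 12 genes with the lowest and the 12 with the highest scaled ratios, at 0 h (circles) and 24 h after scaling (squares). The lower genes start at 16 to 44 links, while 10 of the 12 higher genes start at 3 to 6, Chst11 at 14 and Pcx at 16.

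By contrast, the genes with the most links at 0 h moved little. Sgms1, a sphingomyelin synthase gene, held 277 and 234, Etl4 276 and 246, and the scaffold gene Ahnak 235 and 206, with log2 ratios of -0.10, -0.02 and -0.04. The splicing regulator gene Rbfox2 held 214 and 231, a log2 ratio of 0.26, with 21 of 26 bins higher. Dlgap1, a scaffold of synapses, held 212 and 156, a log2 ratio of -0.29, with 12 of 14 bins lower. Arid5b held 206 and 194, Epb41l4a 204 and 166, and Dym 191 and 194. None of the 8 passed 1.5-fold.

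The 3 genes named as targets changed by less than 1.5-fold. Klf2 held 52 at 0 h and 44 at 24 h, Klf4 21 and 18, and Klf5 54 and 65, with log2 ratios of -0.09, -0.07 and 0.41. Klf2 turned positive with no flank or with 25 kb on each side. Such links say nothing on whether Cas9 cut the gene, and do not test the knockout. In the 15 bins from chr14:99200001 to 99350000, which hold Klf5 and part of Pibf1, links went from 172 to 235, with more links in 13 bins, fewer in 1 and the same number in 1. This stretch was chosen after its values were seen. Of 13 KLF and SP family genes with 20 or more links, 8 were below 0, against 43.4% of all 7469 genes, and 0 were 1.5-fold lower or higher, against 6.08% and 7.06% of all genes. Klf10 held 25 and 16, Klf6 20 and 14, Klf3 31 and 22, Klf9 103 and 91, Sp1 68 and 59, and Klf16 15 and 17. Klf8 is not in that list and was singled out after its values were seen: it held 99 links at 0 h and 46 at 24 h, a log2 ratio of -0.95, which is past 1.5-fold, with 16 of 18 bins lower.

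Among 20 naive pluripotency genes, 15 were below 0, with a median log2 ratio of -0.08 against 0.04 for all genes, and 0 passed 1.5-fold. Of all 7469 genes, 43.4% were below 0, 6.08% were 1.5-fold lower and 7.06% higher. Tet2, which oxidises 5-methylcytosine, held 79 and 58 links, with 11 of 11 bins lower. Tfcp2l1, a factor of the naive network, held 77 and 59, with 8 of 9 bins lower, and Prdm14 26 and 19, Dppa2 25 and 18. Esrrb, at 159 and 140, and Fbxo15, at 67 and 60, were near 0 after scaling. Of 16 shared pluripotency genes 10 were below 0, and 1, Sox2, was past 1.5-fold, at a log2 ratio of -0.60. It was not past that fold over bins listed at both times (35 and 23) or with 25 kb on each side (47 and 31). The 4 bins around Sox2 went from 4 to 0, 11 to 5, 14 to 10 and 10 to 8. L1td1, an RNA-binding protein of pluripotent cells, held 36 and 22, a log2 ratio of -0.55, just outside that fold, and its most linked bin went from 16 to 8. Jarid2 held 125 and 107, Trim71 81 and 72, Sall1 55 and 49, and Zscan10 55 and 48.

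Other signalling lists held single genes past 1.5-fold. Of all 7469 genes, 43.4% were below 0, 6.08% were 1.5-fold lower and 7.06% higher. With so few genes per list, a single gene past the fold says little about its pathway. Of 7 Wnt genes 2 were below 0, with Tcf7l2 lower, while Tcf7l1 held 102 and 103, Tcf7 37 and 44, Apc 49 and 45, and Gsk3b 111 and 82. Of 9 LIF and STAT3 genes 4 were below 0, with Gadd45g higher, while the receptor genes Lifr (107 and 88) and Il6st (35 and 27), together with Bcl3 (51 and 43) and Junb (38 and 31), were below 0. Of 11 FGF and ERK genes 4 were below 0. The receptor gene Fgfr2 was higher, at 12 and 28. After scaling 10 of its 10 bins were higher, some of them with the same number at both times. The feedback inhibitor gene Spry2 was lower, at 14 and 8, though not with 25 kb on each side (26 and 17). Fgfr1 held 41 and 50, and Etv5 118 and 106.

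Of 19 genes for chromatin looping and coactivators 4 were below 0, against 43.4% of all genes, with a median of 0.14, which is 0.00 without scaling, when the median of all genes is -0.10. For this list and the next 3, the shares of all genes past the fold were 6.08% lower and 7.06% higher. Pds5a, a cohesin regulator, went from 23 to 44 links. After scaling 11 of its 12 bins were higher, some of them with the same number at both times. The Mediator subunit gene Med14 went from 11 to 17, while the cohesin subunit gene Stag2 went from 19 to 11. Med14 was not past the fold with 25 kb on each side (15 and 17), nor Stag2 over bins listed at both times (18 and 11). Ep300, which writes H3K27ac, held 87 and 77, Smc3 73 and 68, and Crebbp 69 and 67. Of 15 glycolysis genes 3 were below 0, with a median of 0.07, which is -0.07 without scaling. Pgam1 (21 and 29) and Pgk1 (8 and 16) were higher, Pgam1 neither without scaling nor with no flank (16 and 19), and Slc2a3 held 125 and 116, Hk2 89 and 81, Slc2a1 58 and 52, and Hk1 40 and 40. Of 14 ribosomal protein genes 7 were below 0 and 0 passed 1.5-fold; Rpl3 held 46 and 37 and Rps2 36 and 30. Of 9 epithelial genes 3 were below 0 and 0 passed; Cdh1, encoding E-cadherin, held 70 and 74.

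Lists for the exit from the naive state and for lineages had few genes with 20 or more links. They stand against 43.4% of all genes below 0, 6.08% 1.5-fold lower and 7.06% higher. Of 6 formative or primed genes 4 were below 0, and Foxd3, a forkhead factor gene, was lower at 20 and 11, or 7 and 6 with no flank, which is under the minimum, while Nodal held 39 and 44, Otx2 26 and 21, and Grhl2 26 and 19. Of 4 trophectoderm genes 3 were below 0 and 0 passed 1.5-fold; Tead4 held 64 and 51 and Tfap2a 38 and 30. Of 4 primitive endoderm genes, the laminin gene Lama1 was lower, at 31 and 17, and Lamb1 higher, at 10 and 16, with Sparc at 44 and 45 and Gata6 at 12 and 8. Tbx6 and Gsc were the 2 mesendoderm genes tested, at 15 and 15 and at 16 and 11. Of the 2 neuroectoderm genes Pax7 was higher, at 6 and 14, and Nes held 11 and 10. Both fibroblast genes tested were below 0 and neither passed 1.5-fold: Fn1 is given above and Loxl1 held 27 and 23.

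Changes also ran over longer stretches. In windows of 1 Mb, chosen after the values were seen, 18 of 1300 windows with 50 or more links of both times together were 2-fold lower (1.38%) and 2 were 2-fold higher (0.154%). The most linked of the lower ones lay on chromosome 16, where links went from 243 to 77 and Grin2a, a glutamate receptor subunit gene, was the only gene. Nearly all of it came from the gene-free bins of chr16:9000001-9440000, a stretch of 440 kb. Its 42 bins went from 237 to 71 links, a scaled fall of 3.02-fold, with fewer links in 41 bins, the same number in 1 and more in 0. Of these bins 42 were in the 0 h list and 23 in the 24 h list, and 21.4% held an iPSC KLF4 peak. Valued only at 0 h were 9 bins, most of them not in the 24 h list. The 5 bins in the 100 kb before it held 9 and 10 links, and the 4 bins in the 560 kb after it 6 and 6.

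**Figure D5:**
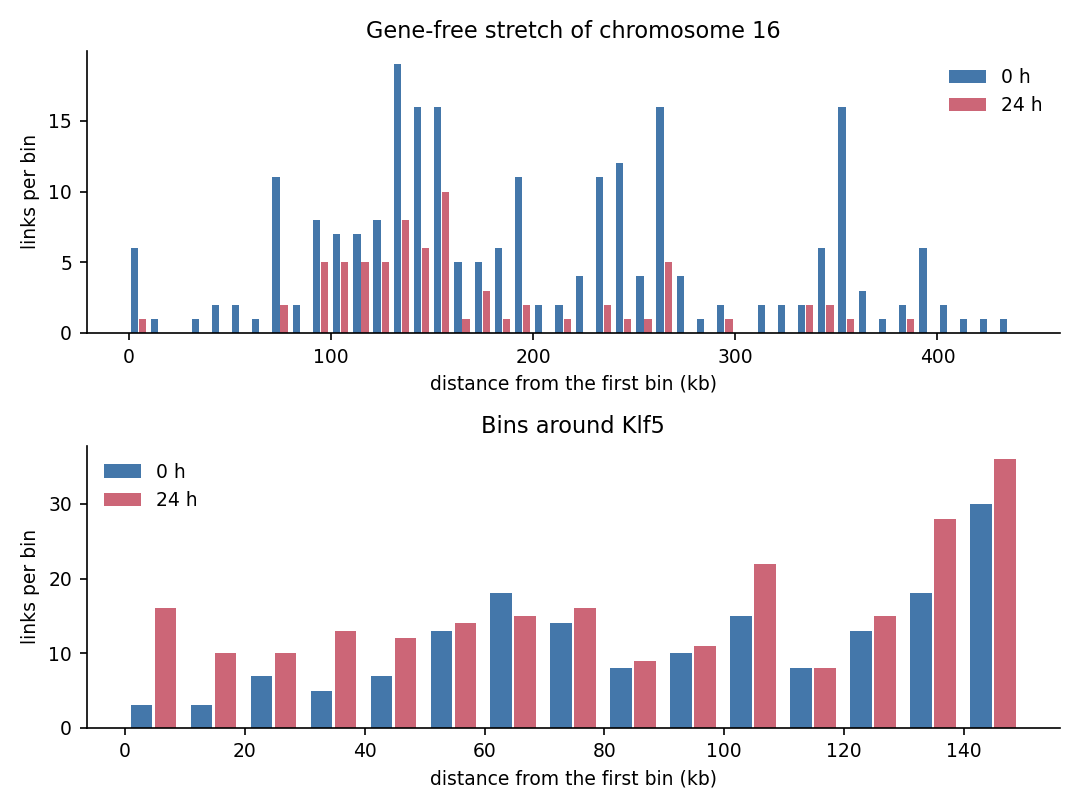
Links per bin at 0 h and 24 h, not scaled, by distance from the first bin in kb, in the gene-free stretch of chromosome 16 (top) and around Klf5 (bottom). In the upper panel 41 of 42 bins hold fewer links at 24 h, and in the lower panel 13 of 15 hold more.

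The 2 higher windows lay on chromosome 9. One holds Sik3 and the apolipoprotein genes Apoa1, Apoa4, Apoa5 and Apoc3 and went from 32 to 64 links, and the other holds Igsf9b, Jam3 and Opcml and went from 35 to 68. The window of Gadd45g, Spin1 and Sema4d on chromosome 13 went from 110 to 187. Within it the 14 bins of chr13:51830001-51970000, with Gadd45g as their only gene, went from 25 to 72, with more links in 12 bins, fewer in 0 and a new value in 5. The window of Oxr1, Zfpm2 and Abra on chromosome 15 went from 170 to 82, with 35 of 46 bins lower after scaling.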

How the data were processed

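The authors deposited 1 list of 10 kb bins for each ESC time and lists of iPSC peaks, without headers. Tools named per the submitters' processing notes are MACS2, bedtools, SAMtools and Bowtie2, with the build mm10. The making of the links, the combining of the 2 replicates and the treatment of depth are not given in the sources used here. The deposited column 4 is a whole-number score, read as links per bin, and the deposited column 10 is a signal that is never negative, taken as present above 1e-300. The marks in columns 5 to 9, deposited as scores of 0 to 2, were not used. The deposited KLF4 peaks have positions and no other measured unit. Lists were tied to times by their names. All columns used were mapped and 0 were left over.

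An unlisted bin counted as 0 and as without a value. The 24 h number was divided by the ratio of the column 4 sums. Calls are folds, not tests: 2-fold for bins with 10 or more links of both times together, 1.5-fold for genes with 20 or more, over the gene and 10 kb on each side, with a pseudocount of 1 in log2 ratios. Intervals are 95% exact (Clopper-Pearson) binomial ones for counting error only. They treat link ends as independent draws, so for sums they can be too narrow. No read depth was available for precision. Genes and promoters are from RefSeq for GRCm38.p6, the primary assembly of mm10. Named were the 12 lowest and 12 highest gene units, the 8 with the most links at 0 h, up to 4 members of each of 16 lists by links together with members past 1.5-fold or described as targets, the 8 bins with the most links, largest falls and largest rises, and promoters among the 6 that the rule gave. Other members, such as Klf16, Prdm14, Dppa2 and L1td1, and all stretches and windows were chosen after their values were seen. The members and lists were chosen with earlier results of these data known. The fold calls, the scaling and the gene sums were tested on simulated data. Python 3.11.15, pandas 2.3.3, NumPy 2.4.6 and SciPy 1.17.1 were used. Alternatives changed the scaling, bins, minimum, fold and flank. Some items that these rules name are left out here.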

Additional observations from a re-analysis of the deposited data

How the results depend on the processing

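With 1 list per time, no result has replicate error, and leaving out a replicate was not possible. No paired analysis was possible because the lists hold no values per replicate. Over bins listed at both times alone, the summed ratio was 0.917, and the scaled ratio was 0.642 in bins valued only at 0 h, 1.73 in those valued only at 24 h, 1.05 in those valued at neither time and 0.987 in those valued at both times, which moved from just above to just below 1. The scaling there is the ratio over the same bins. Without the X chromosome, without chromosome 19 (chosen after seeing the data) or without the 1% of bins with the most links, these ratios stayed within their counting intervals. Asking for a value above 1 left the ratio of each class exactly as it was, so it says nothing on their stability.

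Bins 2-fold lower numbered 512 without scaling and 512 when scaled by the median ratio of bins with 5 or more links at both times, since that ratio is 1. With a minimum of 5 links 1305 of 25457 bins were lower and 1174 higher (5.13% and 4.61%). With 20 links 23 and 6 of 2848 were (0.808% and 0.211%). At a fold of 1.5 the counts were 948 and 919 of 12672 (7.48% and 7.25%), so the excess of lower over higher bins nearly vanished at the smaller fold. For bins of 10 or more links at 0 h, the scaled ratio of 0.934 became 0.844 without scaling, 0.921 when scaled by bins listed at both times, 0.922 over those bins alone, and 0.992 in classes of the mean of both times.

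Gene units 1.5-fold lower and higher numbered 767 and 344 of 7329 without scaling (10.5% and 4.69%). Over bins listed at both times they were 286 and 333 of 7061 (4.05% and 4.72%). With a minimum of 10 links they were 946 and 1009 of 9782 (9.67% and 10.3%). With 40 links they were 128 and 144 of 3918 (3.27% and 3.68%). With no flank they were 304 and 340 of 5006 (6.07% and 6.79%), against 6.15% and 7.12% with the settings used above. No scaling moved the median of all genes by -0.14 in log2. Relative to all genes, the list median changed sign for neuroectoderm, to -0.032 over bins listed at both times, -0.26 with 10 links and -0.25 with 25 kb, and for primitive endoderm, to 0.16 with no flank; these lists rest on 2 and 4 genes. The FGF and epithelial lists, near the median of all genes, also changed sign. Of 98 genes followed by name, 22 changed sign in at least 1 alternative, among them Ep300, Apc, Hk2, Slc2a3, Sp1 and Klf9; none of the 22 was past 1.5-fold. KLF4 ratios stayed within their intervals with any overlap of peak and bin, over bins listed at both times or without chromosome 19, all added after seeing the data.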
